A study of Boehmeria nivea with 2 samples.

Results

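The leaf transcriptome of uninfested ramie is described here from the 300 unigenes with the highest TPM in the control library (CK), of 46533 unigenes in the assembly. TPM is a level per unit of transcript length, scaled by the authors so that each library sums to 1000000 over its unigenes. The 300 unigenes were chosen by TPM itself, so their levels and shares are a description and no test was made of them. Ramie (Boehmeria nivea) is a fibre crop of the nettle family. CK was made from 30-day-old potted plants of the cultivar Chuanzhu No.8, raised from shoot cuttings under 14 h of light a day. The plants are labelled mock-challenged, and the methods of the study call them unchallenged. The 2 topmost undamaged leaves of 5 plants were pooled at each of 12, 24, 48 and 72 h, and equal amounts of RNA from the 4 time points were mixed into 1 library. There is no replicate library, so no value carries an error between plants or times. The series holds 1 other library, from plants challenged with ramie moth larvae, which was not used here.

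In a leaf, the light reactions take place in the thylakoid membranes of the chloroplast. Light-harvesting proteins pass energy to photosystems II and I, electrons flow through the cytochrome b6-f complex, plastocyanin and ferredoxin, and ATP synthase and ferredoxin-NADP reductase make the ATP and NADPH that the Calvin cycle spends on fixing carbon dioxide. Rubisco fixes the carbon dioxide, and when it takes oxygen instead, photorespiration recovers the carbon through the chloroplast, peroxisome and mitochondrion. The subunits of these complexes are encoded partly in the nucleus and partly in the plastid genome. The library was built from RNA caught on oligo (dT) beads, and plastid transcripts of land plants mostly lack the long poly(A) tails of nuclear mRNA.

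The library held a total expected count of 17800062. An expected count of at least 1 was found for 37312 unigenes, and their median level was 1.63 TPM. The 300 highest unigenes held 39.9% of total TPM and 35.2% of the expected counts (exact 95% Clopper-Pearson interval 35.13% to 35.18%). All intervals given here cover counting error only. The highest 10 unigenes held 10.6% of total TPM, the highest 25 held 16.1%, the highest 50 held 21.9% and the highest 100 held 28.5%. A share of 25% of the total was reached with 70 unigenes, 50% with 669 and 90% with 7456. Within the 300, TPM fell from 19389 to 370, a 52.4-fold range, with a median of 687. Of the 300, 94 were above 1000 TPM, 11 were above 5000 TPM and 87 were below 500 TPM.

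**Figure D1:**
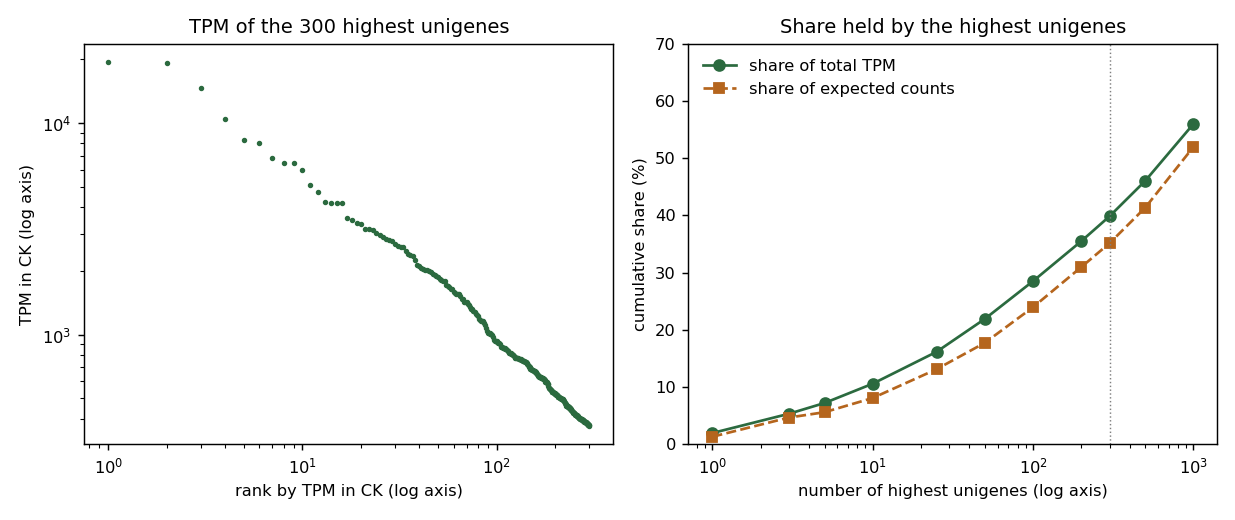
Left, TPM of each of the 300 highest unigenes in CK against its rank, both on log axes. Right, the cumulative share of total TPM (circles) and of expected counts (squares) held by the highest 1 to 1000 unigenes, with a dotted line at 300. The first 100 unigenes held 28.5% of total TPM and the first 300 held 39.9%.

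The limit of the list falls in a dense part of the distribution. The unigenes just inside it were 60S ribosomal protein L19-1 (comp28575_c0) at 373 TPM, an uncharacterized protein (comp39477_c0) at 373 TPM and the polyadenylate-binding protein RBP45C (comp20467_c0) at 370 TPM. Those just outside were NADP malate dehydrogenase of the chloroplast (comp25889_c0), the auxin-responsive protein IAA16 (comp28852_c0) and plastid 30S ribosomal protein S17 (comp30622_c0), each at 368 TPM. By their exact Poisson intervals, 17 unigenes outside the list reached the value of the 300th, and 6 members went below the value of the first one outside. The members' expected counts ranged from 1569 to 341065 with a median of 11703. The interval of a member was on median 1.82% of its value to either side, and at most 4.98%.

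Photosynthesis led the list. Proteins of light harvesting, the photosystems, electron transport with the plastid ATP synthase, Rubisco with its activase, and the Calvin cycle made up 55 of the 300 unigenes and 17.3% of total TPM, or 43.4% of the TPM of the 300. With classes set by the Nr name alone, they were 27 unigenes with 7.93%. By the names of both databases, they held 15.0% of the expected counts (exact 95% interval 15.03% to 15.07%). With the 11 unigenes of photorespiration, the sum was 66 unigenes and 18.7% of total TPM. Photosynthesis unigenes were concentrated at the top. They were 16 of the highest 25, 14 of the next 25, 9 of ranks 51 to 100, 13 of ranks 101 to 200 and 3 of ranks 201 to 300. Outside the list, 261 further photosynthesis unigenes had an expected count of at least 1, but their median was 1.54 TPM, and the 55 members held 97.5% of the TPM of all photosynthesis unigenes.

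**Figure D2:**
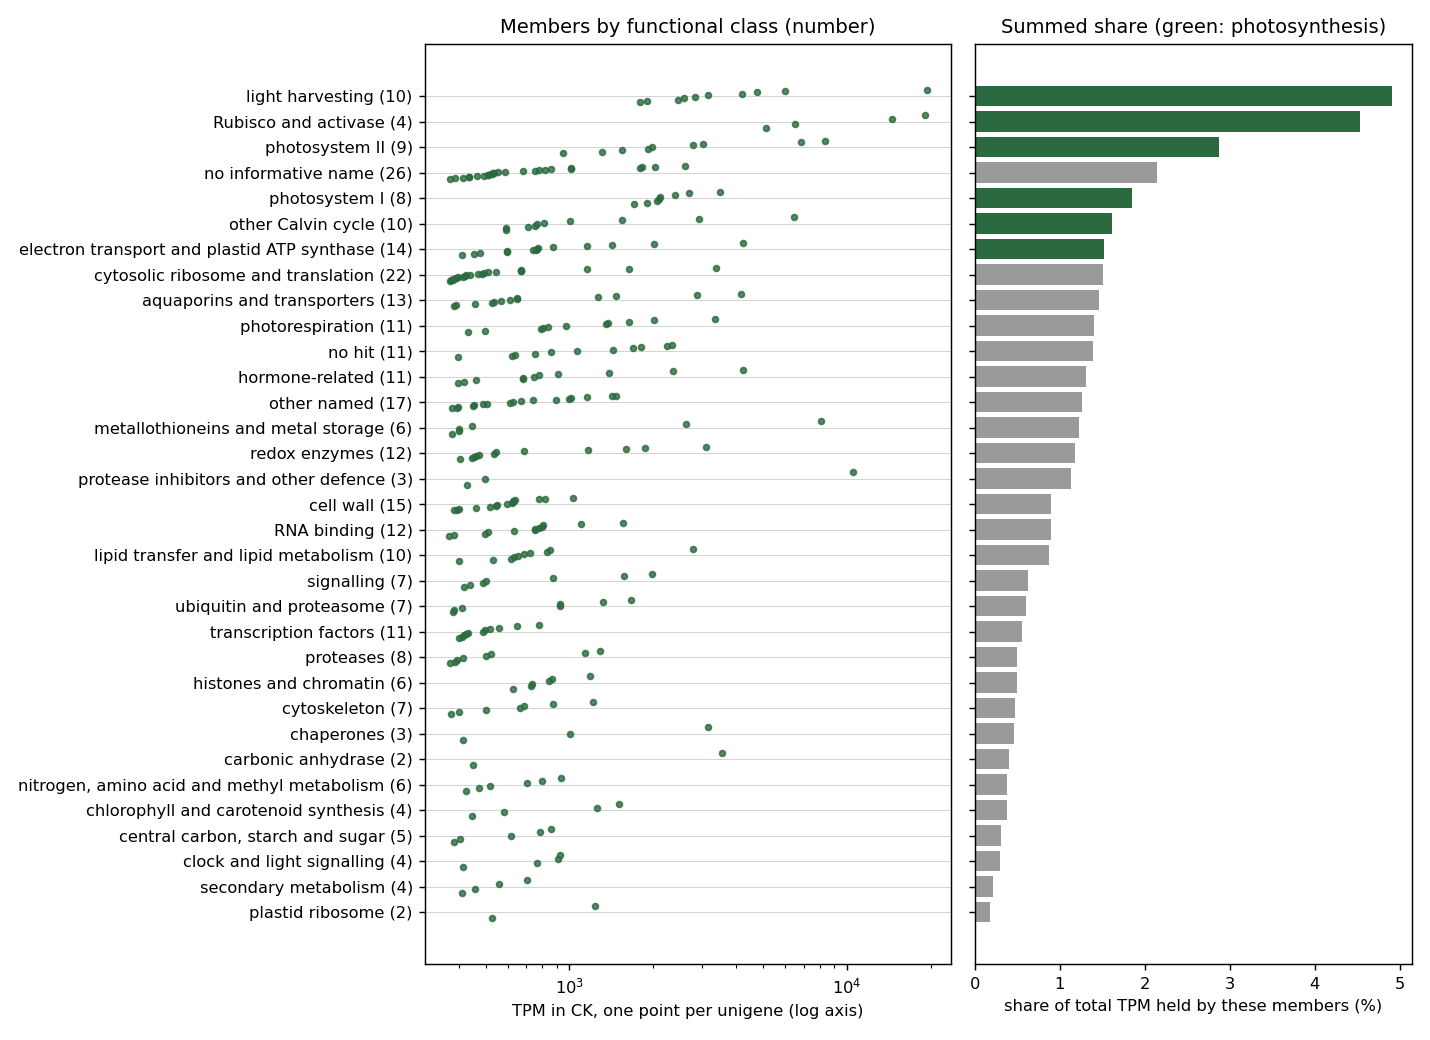
Left, TPM of each of the 300 unigenes in CK (log axis), one point per unigene, by functional class with the number of members in brackets. Right, the share of total TPM (%) that the members of each class held together, with photosynthesis classes in green. Light harvesting (10 unigenes) and Rubisco with activase (4 unigenes) held 4.90% and 4.53%, more than any other class.

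Light-harvesting proteins bind chlorophyll a and b and feed the photosystems. Their 10 members held 4.90% of total TPM and lay between 1792 and 19389 TPM. The highest unigene of the whole library was of the Lhcb1 type (comp35927_c2), a main protein of the trimeric antenna of photosystem II, at 19389 TPM (95% Poisson interval 19310 to 19468). Its partner Lhcb2 (comp28003_c0) was at 5999 TPM, and Lhcb3 was split over 2 unigenes of 1 assembly component (comp26307_c0 and comp26307_c1) at 1910 and 1792 TPM. The minor antenna proteins, which link the trimers to the core, were at 4732 TPM for Lhcb4 (CP29, comp32293_c0), 2826 TPM for Lhcb6 (CP24, comp33666_c0) and 2472 TPM for Lhcb5 (CP26, comp16176_c0). Of the photosystem I antenna, Lhca2 (comp30030_c0) was at 4186 TPM, Lhca3 (comp29842_c1) at 3147 TPM and Lhca1 (comp35737_c1) at 2590 TPM. Among these members, all above the limit of the list, the antenna proteins of photosystem II spanned a wider range than those of photosystem I. This order holds for the members only. With proteins outside the list included, the lowest by KEGG ortholog was 5.30 TPM for photosystem I (Lhca4) and 103 TPM for photosystem II (Lhcb7).

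Another main photosystem I antenna protein, Lhca4, was low by its KEGG ortholog. The highest unigene assigned to the Lhca4 ortholog (comp36123_c0) was at 5.30 TPM, from an expected count of 67. Lhca5 (comp28722_c0) and Lhcb7 (comp35704_c1), which are known as rare members of the family in Arabidopsis, were at 179 and 103 TPM, above Lhca4 and outside the 300. The best Nr hit of the Lhca4 unigene was a protein of Thellungiella, a genus of the mustard family. Names and ortholog assignments were at odds here. Swiss-Prot named the Lhcb7 unigene chlorophyll a-b binding protein 4, the same name as for the Lhca4 unigene, and named the Lhca5 unigene chlorophyll a-b binding protein P4, so the low level of Lhca4 rests on the KEGG ortholog and by Swiss-Prot name the highest would be 103 or 179 TPM. No unigene was assigned to Lhca6.

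Photosystem II splits water, and 9 of its unigenes were among the 300, with 2.87% of total TPM. PsbR, the 10 kDa polypeptide (comp32606_c0), was the highest at 8342 TPM. The proteins that shield the manganese cluster where water is split followed, with PsbO (comp32479_c0) at 6851 TPM, PsbP (comp29876_c0) at 3018 TPM and PsbQ (comp27932_c0) at 1986 TPM. The small subunits were at 2794 TPM for PsbW (comp39386_c0), 1923 TPM for the 5 kDa protein (comp26507_c0) and 1314 TPM for PsbY (comp20327_c0). PsbS (comp27725_c0), which senses lumen acidity and sets the thermal loss of excess light, was at 1554 TPM. These nuclear-encoded subunits spanned a 6.35-fold range. PsbA (comp39411_c0), the D1 protein of the reaction centre, was at 947 TPM and was the only plastid-encoded protein of the lists examined that entered the 300.

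Photosystem I, which reduces ferredoxin, had 8 members named in Swiss-Prot or Nr, and they held 1.85% of total TPM. They were even in level, with all members between 1713 and 3486 TPM, a 2.04-fold range. PsaF (comp35927_c1), which helps plastocyanin dock, was at 3486 TPM. PsaK (comp29829_c0) was at 2690 TPM, PsaD (comp29308_c0), which binds ferredoxin, at 2393 TPM and PsaG (comp35139_c2) at 2122 TPM. PsaL, needed for trimers in cyanobacteria, was carried by 2 unigenes of different components at 2110 TPM (comp20240_c1) and 2072 TPM (comp26709_c0). PsaH (comp26477_c0) was at 1899 TPM and PsaE (comp35810_c0) at 1713 TPM. The PsaE unigene was 2582 bp long, against 850 to 1430 bp for the other named members. By expected count (54429) it was the highest of them, so their order depends on length. A further member, comp26424_c0, had only a hypothetical protein as its Nr name but was assigned to the PsaO ortholog in KEGG. Its level of 1798 TPM lay within the range of the other subunits. PsaN was the exception, with its highest unigene (comp1255_c0) at 1.08 TPM from an expected count of 3. The best Nr hit of that unigene was from Arabidopsis.

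Electron transport and the plastid ATP synthase gave 14 members and 1.52% of total TPM. Ferredoxin-1 (comp37790_c0), the electron carrier after photosystem I, was at 4207 TPM. The Rieske iron-sulfur subunit of the cytochrome b6-f complex (comp29469_c0) was at 2026 TPM and leaf-type ferredoxin-NADP reductase (comp32501_c1) at 1421 TPM. Plastocyanin (comp30069_c0), the copper protein between cytochrome b6-f and photosystem I, was at 1154 TPM. That unigene was 3498 bp long and its Nr name was a glycoprotein acetylglucosaminyltransferase, so its name is uncertain, as is that of a second ferredoxin unigene (comp20297_c0, 770 TPM) that Nr named a hydrolase. The nuclear subunits of the ATP synthase lay close together, at 872 TPM for delta (comp36936_c0), 765 TPM for b' (comp27100_c0) and 595 TPM for gamma (comp39466_c0). Among regulators, the kinase STN7 (comp37583_c0), which moves antenna between the photosystems, was at 595 TPM. PGRL1 (comp32536_c0) and PGR5 (comp26148_c0), which act together in cyclic electron flow, were at 476 and 453 TPM.

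Rubisco and its activase took 4.53% of total TPM with 4 unigenes. The small subunit (comp20267_c0) was at 19116 TPM (95% Poisson interval 19042 to 19190), the second highest level of the library, and held 99.4% of the TPM of all 11 small subunit unigenes. Activase, which frees Rubisco of inhibitory sugar phosphates, had 3 members. They were at 14558 TPM (comp32776_c2), 6502 TPM (comp26469_c0) and 5115 TPM (comp20274_c0), and together held 2.62% of total TPM. Their lengths were 1928, 808 and 659 bp. The longest had the highest expected count of any unigene, 341065. How reads were divided between activase unigenes of similar sequence is not known from the sources, so their separate levels are less certain than their sum.

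Of the other Calvin cycle enzymes, 10 were among the 300, with 1.62% of total TPM. Chloroplast fructose-bisphosphate aldolase (comp39385_c0) was well above the rest at 6448 TPM. The B and A subunits of the NADP-dependent glyceraldehyde-3-phosphate dehydrogenase were at 2942 TPM (comp20236_c0) and 1547 TPM (comp31293_c0), and transketolase (comp36625_c0) was at 1003 TPM. The B unigene was 1870 bp long and the A unigene 3146 bp, with expected counts of 66742 and 60302. The remaining 6 lay between 592 and 814 TPM. They were sedoheptulose-1,7-bisphosphatase (comp30009_c0, 814 TPM), the regulator CP12 (comp28349_c0, 765 TPM), phosphoglycerate kinase (comp35737_c0, 755 TPM), phosphoribulokinase (comp38157_c2, 710 TPM), fructose-1,6-bisphosphatase (comp39519_c0, 594 TPM) and ribulose-phosphate 3-epimerase (comp36633_c1, 592 TPM). Ribose 5-phosphate isomerase (comp33421_c0) fell just outside at 362 TPM, rank 314. Triose-phosphate isomerase of the chloroplast (comp34574_c0) was far lower, at 83.9 TPM and rank 2008. All steps of the cycle that were looked for had a unigene.

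Nuclear and plastid genes differed widely in level. Lists of 94 proteins of light harvesting, the photosystems, electron transport, the ATP synthase, the Calvin cycle and photorespiration were matched to unigenes by KEGG ortholog or Swiss-Prot name. Of 65 nuclear-encoded proteins, 63 had a unigene, 53 had one in the 300, and the median of their highest unigenes was 1639 TPM. Of 29 plastid-encoded proteins, 16 had a unigene, 1 (PsbA) had one in the 300, and the median was 11.2 TPM. The Rubisco small subunit was 145-fold higher in TPM than the plastid-encoded large subunit (comp39892_c0, 132 TPM), although the holoenzyme holds equal numbers of both. PsbC (comp38515_c0) was at 32.4 TPM, PsbB (comp20532_c0) at 22.5 TPM, PsaA (comp37415_c0) at 22.1 TPM, the ATP synthase beta subunit (comp23924_c0) at 14.1 TPM and cytochrome f (comp36553_c0) at 13.6 TPM. Selection on oligo (dT) applies to the whole library, and its part in these values was not tested.

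**Figure D3:**
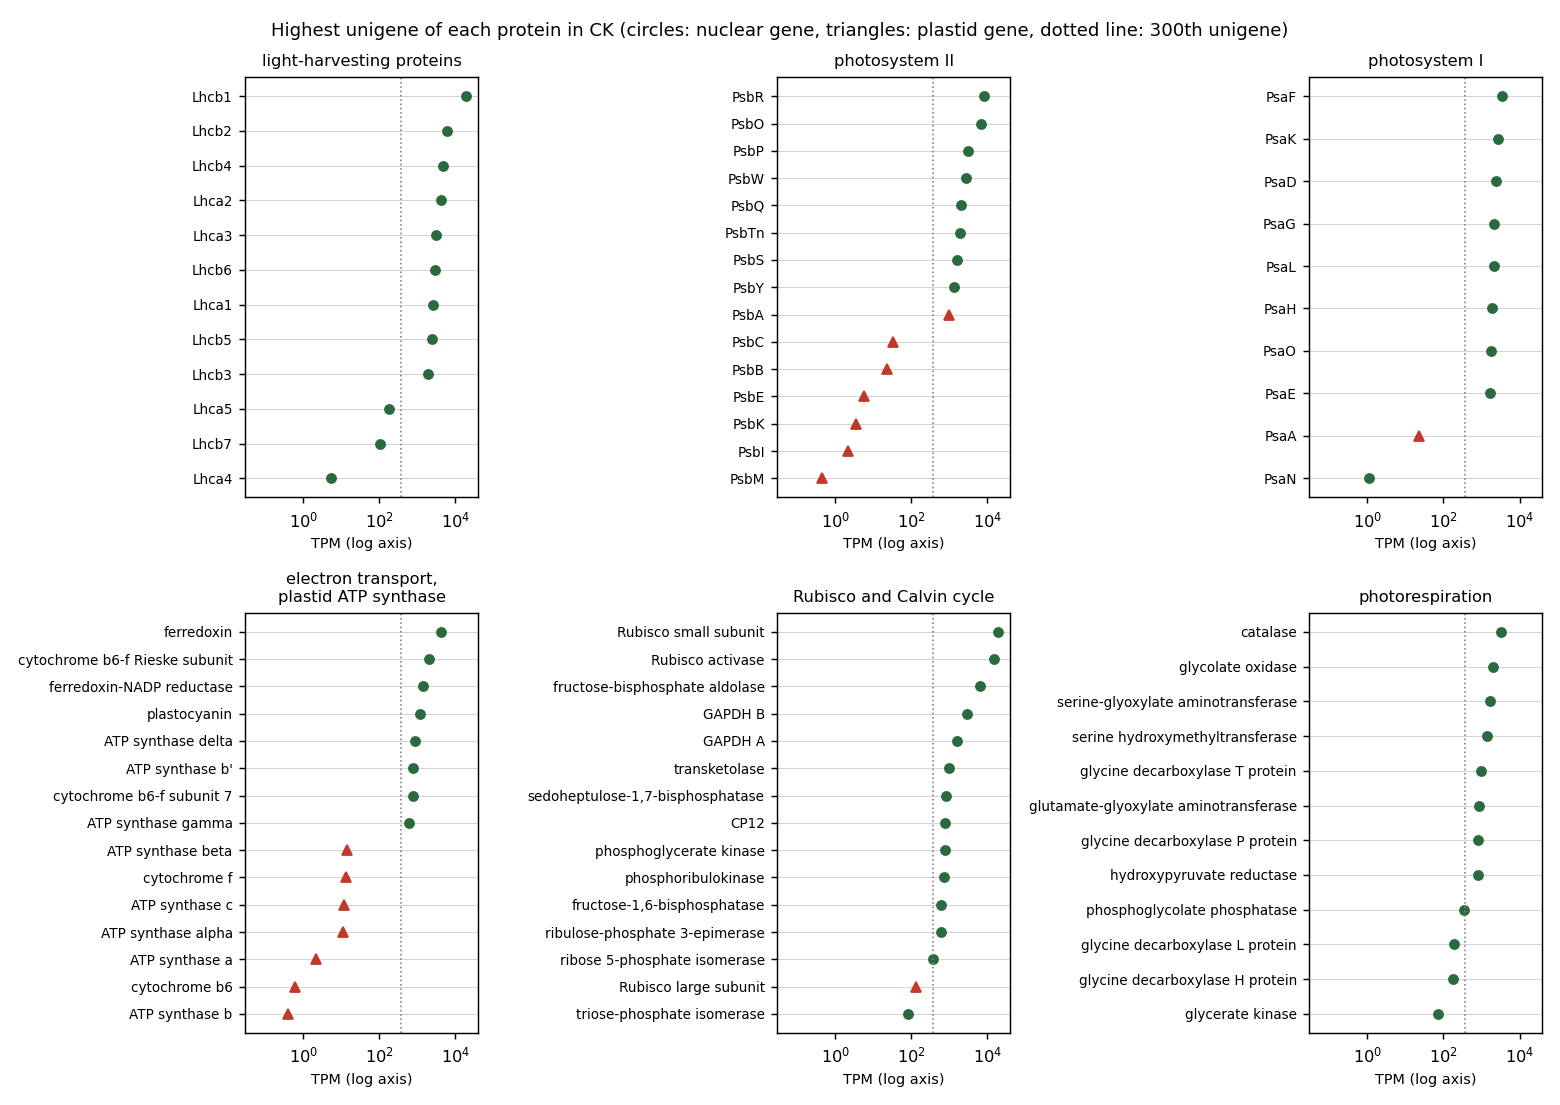
TPM in CK (log axis) of the highest unigene of each listed protein, in 6 panels by list, for nuclear-encoded (circles) and plastid-encoded (triangles) proteins. The dotted line is the TPM of the 300th unigene. Circles lie mostly to the right of the line and triangles to its left, with PsbA (947 TPM) as the exception among plastid genes and Lhca4 (5.30 TPM, by KEGG ortholog) and PsaN (1.08 TPM) as the lowest nuclear ones.

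Most of these proteins rested on a single unigene. All 54 listed proteins with a member among the 300 had more than 1 matching unigene, yet in 35 of the 54 the highest one held at least 99% of their summed TPM, and in 34 the second was under 10 TPM. Those low second unigenes differed from the members in their best Nr hits. After their values were seen, hits to Solanum and to 4 genera of the mustard family (Arabidopsis, Thellungiella, Capsella and Brassica) were counted. They made up 33 of the 34 second unigenes under 10 TPM, and 144 of the 251 photosynthesis unigenes outside the list that had a count and a genus. Among the 55 photosynthesis members, 1 had such a hit (PsaK, comp29829_c0). The 144 unigenes had a median of 1.09 TPM and summed to 350 TPM, 0.0350% of the total. Over the whole library outside the list, 1852 of 21324 unigenes with a count and a genus (8.69%) had these hits. They held 0.981% of total TPM. Among the 300, 6 of 286 members with a genus had such hits and held 0.918%, among them the aquaporin PIP1-3 (comp32324_c1) at 4165 TPM. The highest Lhca4 and PsaN unigenes carried best hits of this kind, and where these low unigenes come from was not tested.

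Photorespiration had 11 members with 1.41% of total TPM. In order of the pathway, glycolate oxidase of the peroxisome (GLO1, comp33416_c0) was at 2013 TPM, with a second unigene (GLO4, comp38776_c3) at 431 TPM. Catalase, which removes the hydrogen peroxide formed, had 3 members at 3333 TPM (comp35139_c0), 1355 TPM (comp26479_c2) and 498 TPM (comp26479_c0). Serine-glyoxylate aminotransferase (comp35402_c0) was at 1639 TPM and glutamate-glyoxylate aminotransferase (comp32308_c0) at 839 TPM. In the mitochondrial steps, serine hydroxymethyltransferase (comp36628_c0) was at 1379 TPM. The T and P proteins of glycine decarboxylase were at 972 TPM (comp30219_c0) and 807 TPM (comp38572_c1), while the L and H proteins were outside the list at 188 TPM (comp38563_c0) and 173 TPM (comp35984_c2). Hydroxypyruvate reductase (comp31015_c0) was at 794 TPM. The first and the last enzymes were also outside the list, with phosphoglycolate phosphatase (comp38157_c4) at 347 TPM, rank 335, and glycerate kinase (comp32211_c0) at 72.9 TPM.

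Other chloroplast functions were present as well. Chloroplast carbonic anhydrase, which interconverts carbon dioxide and bicarbonate, had 2 members at 3552 TPM (comp32229_c0) and 450 TPM (comp25320_c0). The 4 members for chlorophyll and carotenoid synthesis were the magnesium-protoporphyrin monomethyl ester cyclase (comp34911_c0, 1516 TPM), geranylgeranyl diphosphate reductase (comp31934_c0, 1256 TPM), the last enzyme of the plastid pathway to isoprenoid units (4-hydroxy-3-methylbut-2-enyl diphosphate reductase, comp32334_c0, 583 TPM) and the ChlH subunit of magnesium chelatase (comp38929_c0, 447 TPM). In Swiss-Prot names, 81 of the 260 members with a hit (31.2%) were given as chloroplastic, against 1578 of 15877 detected unigenes outside the list (9.94%). The chloroplastic members held 19.1% of total TPM, and the 5 members named as mitochondrial held 0.402%. No unigene of the respiratory chain was among the 300, and all 111 detected unigenes of that class held 0.420% of total TPM. In Gene Ontology, 67 of the 272 members with a term (24.6%) were placed in the chloroplast thylakoid membrane, against 3.56% of the detected unigenes with a term. These shares describe the list and were not tested, since TPM chose it.

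The highest unigene outside photosynthesis encoded a protease inhibitor. A Bowman-Birk type trypsin inhibitor (comp38186_c0), of a family of small disulfide-rich proteins that block trypsin and chymotrypsin, was at 10465 TPM (95% Poisson interval 10389 to 10542). It had rank 4 and alone held 1.05% of total TPM. Its Nr hit was an inhibitor from Maclura, a genus of the related mulberry family. The class of protease inhibitors and other defence proteins had only 2 more members, an antimicrobial snakin-2 (comp28433_c0, 497 TPM), which Nr named a GAST-like protein, and a major latex-like protein (comp16264_c0, 427 TPM). The members of this class together held 1.14% of total TPM, almost wholly through 1 unigene. All unigenes of the class held 1.96%, of which the members made up 58.2%.

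Metallothioneins rested mainly on 2 unigenes. These small cysteine-rich proteins bind copper and zinc. The 1B type (comp32776_c1) had rank 6, at 8045 TPM and the type 3 (comp35139_c1) was at 2626 TPM. The other 10 metallothionein unigenes lay outside the list, and the highest one held 75.3% of the family. The 4 other members of the metal class were between 378 and 446 TPM, among them the iron store ferritin-3 (comp39514_c0, 399 TPM) and PLANT CADMIUM RESISTANCE 2 (comp32309_c0, 446 TPM).

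Aquaporins and transporters had 13 members and 1.46% of total TPM. Of the 13, 6 were aquaporins, which form water channels, and they held 74.8% of the TPM of the 13. PIP1-3 of the plasma membrane (comp32324_c1) was at 4165 TPM and TIP1-1 of the vacuole membrane (comp16172_c0) at 2890 TPM. PIP1-4 (comp37735_c1) was at 1473 TPM, and unigenes named PIP2-8 were at 1272 TPM (comp37869_c7) and 648 TPM (comp34449_c1). PIP2-5 (comp39336_c1) was at 459 TPM. All aquaporin unigenes held 1.16% of total TPM. The other transporters included the vacuolar proton-pumping pyrophosphatase (comp33911_c0, 569 TPM), the triose phosphate translocator (comp29659_c0, 526 TPM), which exports fixed carbon from the chloroplast, and auxin transporter-like protein 2 (comp35866_c1, 384 TPM).

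Hormone-related unigenes had 11 members with 1.30% of total TPM. The highest was a homolog of ACC oxidase (comp35252_c0) at 4218 TPM. ACC oxidase makes ethylene, but the Swiss-Prot name is that of homolog 4 and Nr named the unigene a desacetoxyvindoline hydroxylase of the same dioxygenase superfamily, so it was not read as an ethylene-forming enzyme. The unigene named ACC oxidase itself (comp36353_c0) was at 1395 TPM. An auxin-repressed 12.5 kDa protein (comp32501_c0) was at 2366 TPM. A probable steroid-binding protein (comp16182_c0) was at 911 TPM. The receptors or receptor-like proteins, by Swiss-Prot name, were a TIR1-like auxin receptor (comp35329_c0, 776 TPM) and probable esterases of the D14 type. These were strigolactone esterase D14 (comp29645_c0, 682 TPM) and D14L (comp31660_c0, 681 TPM). Nr named the D14 unigene an RsbQ-like regulation protein and the D14L unigene an alpha/beta-hydrolase, so their role as receptors is uncertain. The jasmonate repressor TIFY 10A (comp36624_c1) was at 744 TPM and the ethylene transcription factor EIN3 (comp39207_c0) at 417 TPM. The F-box protein EBF1 (comp37931_c3), which marks EIN3 for degradation, was at 927 TPM.

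Redox enzymes gave 12 members and 1.18% of total TPM. GDP-L-galactose phosphorylase (comp39390_c0), which commits sugar to vitamin C synthesis, was the highest at 3113 TPM. A tau glutathione S-transferase (comp36015_c0) was at 1869 TPM, peroxidase 42 (comp34449_c0) at 1597 TPM and cytosolic ascorbate peroxidase (comp30006_c0), which uses vitamin C to remove hydrogen peroxide, at 1171 TPM. The other 8 were between 403 and 686 TPM and included 4 thioredoxin-system proteins of the chloroplast, among them CDSP32 (comp30035_c0, 686 TPM) and the M-type thioredoxin (comp27813_c0, 547 TPM).

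Protein synthesis was spread over many unigenes of moderate level. Ribosome and translation had 24 members but 1.68% of total TPM, and 15 of the 24 lay in ranks 201 to 300. The share was 1.04% with expected counts in place of TPM and 1.00% by Nr name alone. The highest was translationally controlled tumor protein (comp29274_c0), a conserved growth-related protein placed here by its name, at 3368 TPM or 0.337% of the total. An SUI1 initiation factor (comp30088_c0) was at 1642 TPM, elongation factor 1-alpha (comp36076_c0) at 1154 TPM and a chloroplast elongation factor Tu (comp26361_c0) at 1236 TPM. Of 330 detected cytosolic ribosomal protein unigenes, 16 were members. They lay between 373 and 673 TPM, with L27a-3 (comp30999_c0) the highest. The lower end of this 1.80-fold range is set by the limit of the list at 370 TPM. A further 69 ribosomal protein unigenes were between 100 TPM and the limit of the list. All cytosolic ribosomal protein unigenes together held 2.57% of total TPM, so that, unlike in photosynthesis, most of the TPM of this class lay outside the 300.

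RNA-binding proteins had 12 members and 0.895% of total TPM. A glycine-rich RNA-binding protein (comp29470_c0) was at 1562 TPM, a unigene that Swiss-Prot named the splicing protein SR45 and Nr a nodulin-like protein (comp30163_c0) at 1104 TPM, the CPSF30 polyadenylation factor (comp26343_c0) at 805 TPM and RBP45B (comp26396_c0) at 801 TPM. Histones and chromatin had 6 members, all between 625 and 1186 TPM. They were histone H3.3 (comp29076_c0, 1186 TPM, and comp20223_c0, 625 TPM), H2B (comp37241_c0, 847 TPM), H4 (comp26717_c0, 736 TPM), H1 (comp32028_c0, 725 TPM) and an HMG protein (comp32499_c0, 867 TPM). H3.3 is the histone variant deposited outside DNA replication.

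Cell wall proteins had 15 members but no very high one, and held 0.898% of total TPM. A xyloglucan endotransglucosylase/hydrolase (comp35487_c0), which cuts and rejoins wall xyloglucan, was at 1035 TPM. UDP-glucuronate 4-epimerase (comp39409_c1), which supplies pectin precursors, was at 816 TPM. A glycine-rich structural protein (comp39431_c0) was at 776 TPM and a proline-rich protein (comp31692_c1) at 638 TPM. Lipid transfer and lipid metabolism had 10 members with 0.871%. Non-specific lipid-transfer protein 1 (comp39394_c0) was at 2780 TPM. The 2 other lipid-transfer proteins were at 834 TPM (comp30171_c0) and 721 TPM (comp29912_c0). A chloroplast linoleate 13S-lipoxygenase (comp38454_c0), whose product can enter jasmonate synthesis, was at 854 TPM, and a 9S-lipoxygenase (comp39017_c0) at 656 TPM.

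Among the 300, transcription factors, clock and light signalling, and signalling each held a smaller share of total TPM than cell wall or lipid members. Over all unigenes, signalling held 5.68%, transcription factors 3.16% and clock and light signalling 0.653%, against 3.26% for cell wall and 1.78% for lipid. Transcription factors had 11 members between 401 and 776 TPM, with 0.558% of total TPM. The highest were RAP2-4 of the ERF family (comp37813_c7, 776 TPM), the homeodomain-leucine zipper protein HAT5 (comp31977_c0, 647 TPM) and 2 unigenes named MYB1R1 (comp39419_c0, 559 TPM, and comp34521_c0, 518 TPM). In clock and light signalling, a root phototropism protein 2 unigene (comp33497_c0) was at 924 TPM, the B-box factor salt tolerance protein (comp33499_c1) at 913 TPM and the morning clock factor LHY (comp38712_c0) at 768 TPM. The times at which leaves were taken were multiples of 12 h apart, and no source used here gives the hour of the day. Signalling had 7 members, led by ADP-ribosylation factor 1 (comp16203_c0, 1977 TPM), a GTPase of vesicle transport, and by synaptotagmin-2 (comp29291_c0, 1576 TPM), which tethers membranes. A CML29 calcium-binding protein (comp26987_c0) was at 875 TPM and calmodulin (comp32776_c0) at 491 TPM.

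Protein turnover and folding had members at several levels. Ubiquitin unigenes were at 1673 TPM (comp36616_c0) and 1325 TPM (comp31096_c0), and the conjugating enzyme E2 10 (comp39400_c0) at 928 TPM. The 8 proteases included the vacuolar papain-type enzymes aleurain-like protease (comp36254_c0, 1293 TPM) and RD19a (comp39398_c0, 1137 TPM), the vacuolar-processing enzyme (comp30356_c0, 522 TPM) and FTSH 2 (comp30122_c0, 503 TPM), which removes damaged D1 protein from photosystem II. A DnaJ co-chaperone (comp29920_c0) reached 3153 TPM, above the heat shock cognate 70 kDa protein (comp31992_c0) at 1007 TPM. The cytoskeleton class was led by actin-1 (comp33067_c0, 1222 TPM), actin-7 (comp38929_c3, 877 TPM), alpha-tubulin (comp35943_c0, 687 TPM) and actin-depolymerizing factor 2 (comp33874_c2, 662 TPM).

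Primary and secondary metabolism outside the chloroplast cycles took small shares. For nitrogen, amino acid and methyl metabolism the highest were S-adenosylmethionine synthase (comp34645_c0, 932 TPM), S-adenosylmethionine decarboxylase (comp32647_c0, 799 TPM), plastid glutamine synthetase (comp33411_c0, 705 TPM), which takes up photorespiratory ammonia, and ketol-acid reductoisomerase (comp37018_c0, 520 TPM). Granule-bound starch synthase (comp37051_c1) was at 858 TPM, phosphoenolpyruvate carboxykinase (comp38055_c0) at 785 TPM and cytosolic aldolase (comp31023_c0) at 617 TPM. The 4 unigenes of secondary metabolism, such as a terpene synthase (comp39065_c0, 558 TPM) and a secologanin synthase (comp33267_c0, 457 TPM), held 0.213% of total TPM.

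A further 17 members had names that fitted none of the classes, at 378 to 1470 TPM and 1.27% of total TPM. The highest were an src1 protein (comp31597_c0, 1470 TPM), a stem-specific TSJT1 protein (comp38454_c1, 1427 TPM), a DCD domain protein named B2 (comp28418_c0, 1155 TPM) and DEHYDRATION-INDUCED 19 homolog 4 (comp30337_c1, 1014 TPM).

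Some of the most abundant unigenes had no name. Of the 300, 26 had only hypothetical, uncharacterized or unknown proteins as names, with 2.15% of total TPM, and 11 had no hit in any database, with 1.39%. Together they held 3.54%, and 18.6% when the Nr name alone was used. Of the 26, comp16169_c0 was the highest at 2601 TPM, followed by comp29047_c0 at 2037 TPM and comp33551_c2 at 1834 TPM. Only comp26424_c0, the PsaO ortholog, had a KEGG assignment. None of the 37 was among the highest 25. The members without a hit were led by comp39336_c0 (2351 TPM, 2455 bp) and comp39301_c0 (2254 TPM, 3436 bp), followed by comp16168_c0 (1808 TPM, 354 bp) and comp37061_c0 (1703 TPM, 522 bp). Their median length was 621 bp, against 1294 bp for members with a hit and 356 bp for all detected unigenes without one. A group of 3, comp25962_c2, comp25962_c0 and comp25962_c4, belonged to 1 component and were at 1431, 1070 and 621 TPM. In 4 of the 11, another unigene of the same component had a hit, such as the aquaporin PIP2-5 beside comp39336_c0. Hits were more frequent in the list than outside it, with 289 of 300 members (96.3%) against 58.0% of the 37012 other detected unigenes.

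Names and assembly both set limits on single unigenes. For 98 members the Swiss-Prot name was informative and the Nr name was not, and the reverse held for 7. For 34 members the names of both databases were informative but led to different classes, and in 25 of the 34 this was because 1 of the names fitted none of the classes. Some of these pairs were names of the same or related proteins, such as LHY and late elongated hypocotyl. Others were unrelated, such as the plastocyanin and ferredoxin unigenes above, and a formin-like protein 5 that Nr named an auxin efflux carrier (comp37735_c0, 376 TPM). In the assembly, 43 members shared 19 components, and in 16 of the 19 the members fell in different classes. Component comp32776, for instance, held activase, metallothionein 1B and calmodulin, and comp35139 held catalase, metallothionein type 3 and PsaG. Members were longer than other detected unigenes, with a median of 1270 bp against 543 bp, and 204 of them had a single assembled transcript. The best Nr hits came from 36 genera, led by Prunus (64 of 286), Vitis (40) and Theobroma (32), while 1 hit was from Boehmeria itself and 6 were from Morus (mulberry).

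The label of the tissue was set against markers of cell types and organs. All 5 mesophyll markers were present, with 17 members among the 300 and a sum of 100035 TPM. Of 7 epidermis and cuticle markers, 6 had a unigene and the sum was 6315 TPM, mostly lipid-transfer proteins. Guard cell markers summed to 875 TPM, of which 841 TPM came from 25 unigenes that shared the kinase HT1 as best hit. Phloem markers summed to 279 TPM, of which 232 TPM came from 7 unigenes matched to phloem protein 2. Trichome markers summed to 60.4 TPM. The secondary wall markers of xylem and fibres summed to 216 TPM, of which 178 TPM came from 10 unigenes matched to IRX. Among these markers, the cellulose synthases CESA4, CESA7 and CESA8 were at 4.97, 3.84 and 7.28 TPM as sums over their unigenes. Among markers of dividing cells, histones H3 and H4 summed to 1854 and 738 TPM. Most of the H3 sum came from the 2 H3.3 unigenes above (1186 and 625 TPM), a variant deposited outside DNA replication. B-type cyclins summed to 89.2 TPM, PCNA to 19.9 TPM, KNOLLE to 2.50 TPM, AURORA to 1.72 TPM and cyclin-dependent kinase B to 0.72 TPM. No unigene matched any of the 3 root markers, and the flower markers AGAMOUS, SEPALLATA and APETALA3 were at 0.56, 1.37 and 0.84 TPM. The same search by name also found no unigene for cutin synthase, KAT1, MYB60, SEO, SWEET11, GL1 and PISTILLATA. A marker without a match can therefore mean only that no name fitted. In a mixed tissue, fewer cells of a type and less RNA per cell cannot be told apart.

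**Figure D4:**
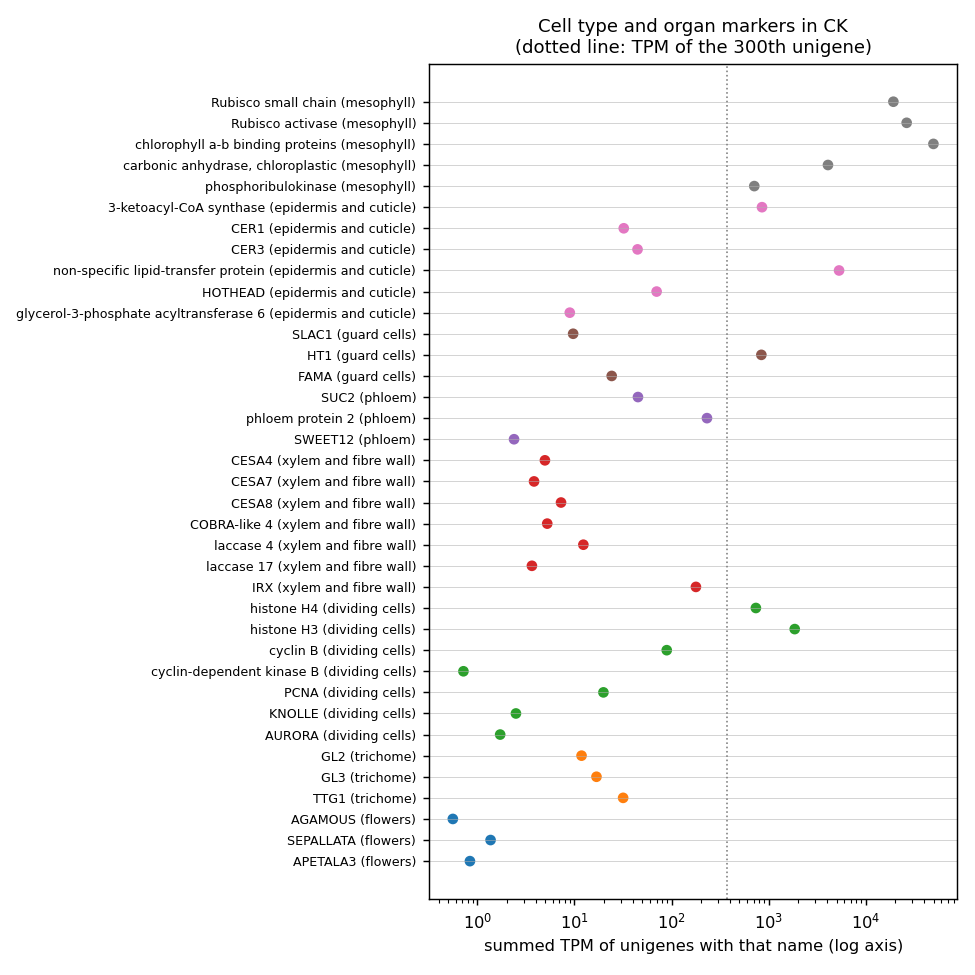
Summed TPM in CK (log axis) of the unigenes with the name of each cell type or organ marker, coloured by cell type, for markers with at least 1 unigene. The dotted line is the TPM of the 300th unigene. All 5 mesophyll markers lie to the right of it, and the cellulose synthases of secondary walls and the flower markers lie below 10 TPM.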

How the data were processed

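Leaf RNA of CK was sequenced as paired ends on an Illumina HiSeq platform after selection on oligo (dT) beads. The authors merged both libraries into 1 Trinity assembly and searched the unigenes by BLASTx in Nr, Swiss-Prot, KEGG, COG and GO. The authors deposited for each unigene an expected count, TPM, RPKM, length and effective length. The deposited expected counts are not normalized. The deposited TPM was the expected count over effective length scaled to a fixed sum, and the deposited RPKM ranks the unigenes in the same order and was not used. Mapping and counting were done with a program not given in the sources used here. The authors' notes name DESeq, which was not used.

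Unigenes were ranked by TPM and the highest 300 taken. Each was placed in 1 of 31 functional classes by words in its Swiss-Prot name or, failing that, its Nr name, and otherwise as named elsewhere, without informative name or without hit. Members and lists were chosen with earlier results of these data known, and the words were fitted to the spelling of the annotation. Named unigenes were the 25 highest, up to 4 highest of each class, the highest of each listed photosynthetic protein, 3 on either side of the limit, and others named for their values. Exact Poisson intervals (95%) were carried from the rounded expected count (17800062 in all) to TPM, and exact Clopper-Pearson intervals given for shares of counts. The Poisson intervals were tested on simulated counts, and the Clopper-Pearson intervals were not. With 1 library, no test between groups was made. Alternatives were ranking by expected counts, full length, a minimum length of 300 bp, a minimum expected count of 10, adding unigenes of a component, other list sizes and either database alone. Python 3 with numpy, pandas, scipy and matplotlib was used.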

Additional observations from a re-analysis of the deposited data

How the results depend on the processing

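No paired analysis was possible because 1 library was used. The 300 unigenes held 37.6% of the total when ranked and weighed by expected counts, 39.8% with full length, 40.3% without unigenes under 300 bp, 40.5% without those under 10 expected counts and 42.2% with the unigenes of a component added. With 100, 200 and 500 unigenes the share was 28.5%, 35.5% and 46.0%. In the same order, photosynthesis held 15.0%, 17.4%, 17.5%, 17.6% and 18.1%. Ribosome and translation held 1.04%, 1.55%, 1.74%, 1.71% and 1.68%. Members without informative name held 2.63%, 3.35%, 3.58%, 3.59% and 3.47%. The database mattered more. By Nr name alone, photosynthesis had 27 unigenes in place of 55 and 7.93% of total TPM, ribosome and translation had 1.00%, and members without informative name rose from 3.54% to 18.6%, since many Nr names are hypothetical proteins. By Swiss-Prot name alone, ribosome and translation had 1.62% and members without informative name 4.02%, while photosynthesis was unchanged at 17.3%. The number of photosynthesis unigenes was otherwise between 52 and 55. Of the 300, 212 stayed in the list when ranked by expected counts and 293 with full length. The depth gives members narrow counting intervals, but differences between plants, times and libraries were not measured, and levels near 1 TPM rest on few counts.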
